A study of Homo sapiens with 18 samples.

Results

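Each KDM2B peak of MDA-MB-231 cells was paired, by its summit, with the nearest MYC summit on the same chromosome. The summit is the base of highest signal within a peak, and each deposited peak carried 1. The members were the 19831 KDM2B peaks on chromosomes 1 to 22, out of 20018 KDM2B peaks on all chromosomes and 778196 peaks of 6 targets in the whole series. They were paired with 49142 of the 49833 MYC peaks, those on the same chromosomes.

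KDM2B is a histone H3K36 demethylase with a CXXC zinc finger that binds unmethylated CG dinucleotides, and it brings the non-canonical Polycomb complex ncPRC1.1, which ubiquitinates H2AK119, to CpG islands. MYC is a basic helix-loop-helix leucine zipper protein that binds DNA as a dimer with MAX, with a preference for the E-box CACGTG, and is found at most active promoters of cancer cells. Both factors are therefore known from CpG-rich promoters, and a peak list shows only that both were found in one stretch. The distance between summits shows how near to each other their signals were highest.

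The peaks came from ChIP-seq, the sequencing of DNA precipitated with an antibody, on enzymatically digested chromatin of MDA-MB-231, a widely used cell line from a triple-negative breast cancer. KDM2B, MYC, H3K4me3, H3K27me3 and H2AK119ub were profiled in untreated parental cells, and H3K27ac in the same line carrying an empty vector; no group was treated. With ATF4, which is not analysed here, and input libraries of both stocks, the series held 18 libraries in 9 groups of 2. The deposited lists hold 1 set of peaks per target for 2 libraries, so no value below has a replicate error, no test was possible, and the depth of the libraries is unknown.

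Named genes of a mesenchymal and basal cell list had H3K4me3 within 1 kb of an annotated start, or of a record end where no start was listed, in 12 of 14 and H3K27ac in 13 of 14, with TWIST1 lacking both and SPARC lacking H3K4me3. Luminal and epithelial genes had H3K4me3 in 12 of 16 and H3K27ac in 9 of 16. The genes without H3K4me3 were CDH1, GREB1, TFF1 and SPDEF, and those without H3K27ac were the same genes with PGR, ESR1 and CLDN3. The labelled line, which lacks oestrogen and progesterone receptors, thus carried no H3K27ac at the starts of ESR1 or PGR, although both had H3K4me3 there.

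Promoter windows of 300 bases show the arrangements on DNA. All are from RefSeq on GRCh38.p14, the build of the lists (hg38), and run from 250 bases before to 50 after an annotated transcription start, 5′ to 3′ in the direction of transcription. The first pair shows summits of both factors within 50 bases of each other and an E-box, and capitals mark CACGTG. HPGD encodes the enzyme that inactivates prostaglandins (chr4:174522439-174522738, minus strand) and BID a pro-apoptotic BH3 protein (chr22:17773934-17774233, minus strand).
HPGD: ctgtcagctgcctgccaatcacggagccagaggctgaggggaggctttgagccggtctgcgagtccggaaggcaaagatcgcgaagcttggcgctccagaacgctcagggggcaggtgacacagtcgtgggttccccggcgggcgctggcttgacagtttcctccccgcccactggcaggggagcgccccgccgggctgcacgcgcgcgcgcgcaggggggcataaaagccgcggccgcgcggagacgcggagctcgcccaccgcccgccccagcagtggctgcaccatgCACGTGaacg
BID: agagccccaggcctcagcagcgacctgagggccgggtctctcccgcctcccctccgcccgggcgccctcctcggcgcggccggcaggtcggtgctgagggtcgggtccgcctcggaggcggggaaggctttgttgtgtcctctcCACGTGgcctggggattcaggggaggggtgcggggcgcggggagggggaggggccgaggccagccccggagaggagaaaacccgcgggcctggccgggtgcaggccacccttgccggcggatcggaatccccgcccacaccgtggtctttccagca
In the HPGD window the KDM2B summit fell on base 250 and the MYC summit on base 288, 38 bases apart, and CACGTG began at base 291. In the BID window the KDM2B summit fell on base 241 and the MYC summit on base 255, 14 bases apart, while CACGTG began at base 145. Near-coincident summits thus stood beside the E-box in HPGD and away from it in BID.

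The next windows each hold a summit of 1 factor that is over 1 kb from any summit of the other, and capitals mark CG, the dinucleotide that the CXXC domain of KDM2B reads. BCL2L11, which encodes the pro-apoptotic protein BIM (chr2:111120664-111120963, plus strand), and EGR2, a zinc finger transcription factor (chr10:62816317-62816616, minus strand), are genes where the factors used separate sites, and their windows held a MYC summit and no KDM2B summit. SOCS3, an inhibitor of cytokine signalling (chr17:78359618-78359917, minus strand), and FAT1, an atypical cadherin (chr4:186726647-186726946, minus strand), also hold a closer pair elsewhere in the gene, and their windows held a KDM2B summit with no MYC summit within 1 kb of it.
BCL2L11: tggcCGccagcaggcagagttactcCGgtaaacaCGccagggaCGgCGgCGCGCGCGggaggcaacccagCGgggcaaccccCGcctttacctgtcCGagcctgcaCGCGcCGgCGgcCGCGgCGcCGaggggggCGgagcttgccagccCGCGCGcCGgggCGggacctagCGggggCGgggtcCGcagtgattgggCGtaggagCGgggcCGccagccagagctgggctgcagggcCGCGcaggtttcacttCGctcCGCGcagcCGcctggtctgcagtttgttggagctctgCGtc
EGR2: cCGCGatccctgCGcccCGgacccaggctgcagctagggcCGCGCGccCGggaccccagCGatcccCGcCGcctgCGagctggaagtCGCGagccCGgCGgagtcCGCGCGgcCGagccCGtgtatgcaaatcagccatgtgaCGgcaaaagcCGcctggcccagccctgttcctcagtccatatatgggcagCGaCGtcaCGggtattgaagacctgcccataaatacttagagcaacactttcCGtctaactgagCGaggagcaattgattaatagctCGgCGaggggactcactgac
SOCS3: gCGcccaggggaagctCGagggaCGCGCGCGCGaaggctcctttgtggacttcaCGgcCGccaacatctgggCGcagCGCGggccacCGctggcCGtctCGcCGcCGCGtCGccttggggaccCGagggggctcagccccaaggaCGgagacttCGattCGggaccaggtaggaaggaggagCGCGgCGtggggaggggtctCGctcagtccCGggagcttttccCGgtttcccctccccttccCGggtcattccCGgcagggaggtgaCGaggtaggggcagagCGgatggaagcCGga
FAT1: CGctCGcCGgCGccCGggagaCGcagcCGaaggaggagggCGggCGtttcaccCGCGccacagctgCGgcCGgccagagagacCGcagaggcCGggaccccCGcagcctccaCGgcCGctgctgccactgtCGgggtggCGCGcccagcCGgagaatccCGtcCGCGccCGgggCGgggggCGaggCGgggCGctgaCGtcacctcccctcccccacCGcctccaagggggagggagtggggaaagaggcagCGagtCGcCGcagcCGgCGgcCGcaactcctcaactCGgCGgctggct
The MYC summit in the BCL2L11 window lay 1599 bp from the nearest KDM2B summit, and that in the EGR2 window 1309 bp. The KDM2B summit in the SOCS3 window lay 1252 bp from the nearest MYC summit, and that in the FAT1 window 1012 bp. The SOCS3 and FAT1 windows held 34 and 40 CG, and the BCL2L11 and EGR2 windows 39 and 30. All 4 windows were thus rich in CG, and none held CACGTG.

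ASNS, which encodes asparagine synthetase, is shown as the amino acid gene of the named core set with summits of both factors in 1 window (chr7:97872116-97872415, minus strand, capitals mark CG).
ASNS: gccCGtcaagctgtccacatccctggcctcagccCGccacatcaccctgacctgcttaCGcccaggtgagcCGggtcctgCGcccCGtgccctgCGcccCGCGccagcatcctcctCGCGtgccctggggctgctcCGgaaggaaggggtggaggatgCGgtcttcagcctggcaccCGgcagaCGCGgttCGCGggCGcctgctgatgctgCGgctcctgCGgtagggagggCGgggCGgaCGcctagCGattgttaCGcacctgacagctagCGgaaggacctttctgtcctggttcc
The KDM2B summit fell on base 144 and the MYC summit on base 73 of the ASNS window, 71 bases apart, and the window held 27 CG and no CACGTG.

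Over all promoter windows, CACGTG (a palindrome, so the same on both strands) was present in 8.25% of 21156 and CG in nearly every one, with a median of 21 CG per window. Windows with summits of both factors held CACGTG in 12.7% (81 of 640) and a median of 34 CG. Windows with a KDM2B summit and no MYC summit held CACGTG in 7.43% (50 of 673; 95% Wilson interval 5.68% to 9.66%) and a median of 31 CG. Windows with a MYC summit and no KDM2B summit held it in 19.0% (374 of 1972; 17.3% to 20.8%) and a median of 30 CG. The interval for KDM2B alone took in the share of all windows and that for MYC alone lay above it, while the median CG count of the 3 groups with a summit was 30 to 34.

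Where KDM2B had a summit in the window and no MYC summit lay within 1 kb of it, the median was 32.5 CG, over 88 windows, and 10.2% held CACGTG (5.47% to 18.3%). Where MYC had a summit in the window and no KDM2B summit lay within 1 kb of it, the median was 25 CG, over 699 windows, and 17.9% held CACGTG. In the 81 windows with both summits and a CACGTG, the KDM2B summit was the nearer one to the E-box in 15 and the MYC summit in 63, with 3 at equal distance. The median distance to the E-box was 104 bases for KDM2B summits and 42.5 bases for MYC summits. These windows end 50 bases after the start, and 17871 of the 21156 held no summit of either factor. The 21156 windows came from 15101 genes, so a gene can have several windows. Overlapping windows were not merged, so 1 summit or 1 E-box can be counted more than once. Intervals here and below cover counting error only, and those for windows treat each window as separate.

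KDM2B summits lay close to MYC summits. The median distance was 256 bp, with quartiles of 51 and 994 bp. Of the 19831 KDM2B summits, 265 (1.34%) fell on the very base of a MYC summit, 24.9% lay within 50 bp, 49.7% within 250 bp (9847; 49.0% to 50.4%) and 75.1% within 1 kb. The nearest MYC summit lay on the side of the lower coordinate for 50.4% of pairs, so genome coordinates show no side. At the far end, 24.9% of KDM2B summits had no MYC summit within 1 kb and 4.51% (894) had none within 100 kb.

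**Figure D1:**
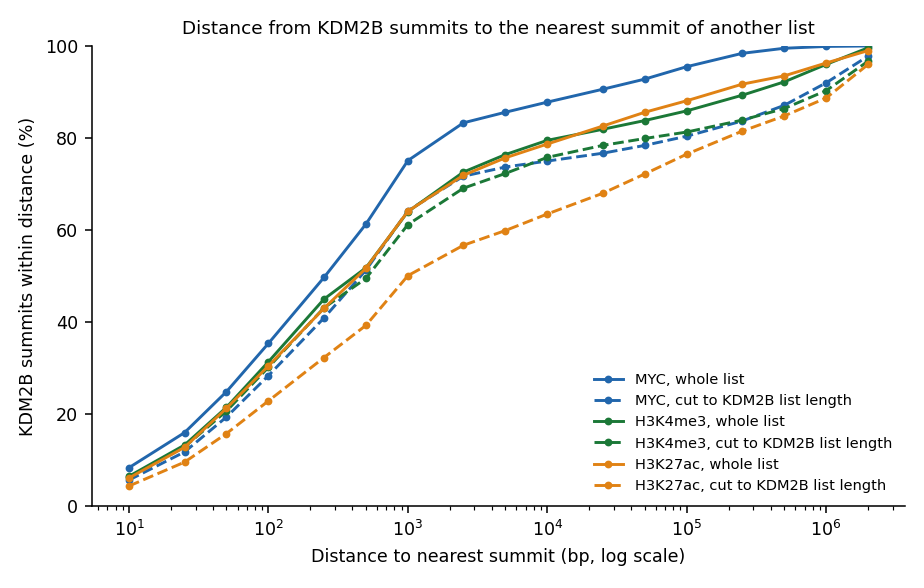
Share of the 19831 KDM2B summits (%, vertical axis) with a summit of MYC, H3K4me3 or H3K27ac within a given distance (bp, log scale). Solid lines use whole lists, and dashed lines use lists cut by fold to the number of KDM2B peaks. MYC stands highest among whole lists, with 49.7% at 250 bp, and H3K4me3 stands above MYC at that distance among cut lists, 43.1% against 40.9%.

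Nearness to each target fell when its list was cut, by unlike amounts. The whole lists held 49833 MYC, 71597 H3K4me3 and 95771 H3K27ac peaks, so MYC was nearest although its list was the shortest of the 3. A cut by fold also changes which peaks are kept, and this was not told apart from number. KDM2B summits had a median distance of 427 bp to H3K4me3 summits and 444 bp to H3K27ac summits, with 45.0% and 43.0% within 250 bp. With every list cut to 19831 peaks by fold, the median was 464 bp for MYC, 521 bp for H3K4me3 and 996 bp for H3K27ac. Within 250 bp, the cut lists gave 40.9% for MYC, 43.1% for H3K4me3 and 32.3% for H3K27ac. At equal list length, KDM2B summits were about as near to the promoter mark as to MYC, and the order of those lists depended on the measure.

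From the MYC side most summits stood alone. The median distance from a MYC summit to the nearest KDM2B summit was 8902.5 bp, 28.2% of MYC summits had a KDM2B summit within 1 kb, and 14.6% had none within 100 kb. Pairs in which each summit was the nearest of the other held 70.1% of KDM2B summits (13906), at a median of 98 bp. The remaining KDM2B summits had a median of 2030 bp and were nearest to a MYC summit that had a closer KDM2B partner.

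Many KDM2B summits were inside a MYC peak and still some way from its summit. KDM2B peaks had a median width of 386 bp and reached 6922 bp, and MYC peaks had a median of 534 bp and reached 18726 bp. Inside a MYC peak lay 81.1% of KDM2B summits (16074), and 39.2% of these were over 250 bp from the MYC summit. With 1 summit per peak, a wide MYC peak can cover several KDM2B peaks: 29.1% of KDM2B summits (5767) shared a MYC peak with another KDM2B summit. MYC peaks without a KDM2B summit numbered 36248, with a median width of 391 bp, and those with 2 or more numbered 2587, with a median width of 2764 bp.

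The most crowded MYC peaks held 9 KDM2B summits each. One was 14516 bp wide and overlapped EPHA2, a receptor tyrosine kinase for ephrins, and its KDM2B folds ran from 2.66 to 6.46 with a median spacing of 1162 bp. The other, 11347 bp wide on chromosome 19, overlapped no protein-coding record, and its KDM2B folds ran from 2.4 to 4.94 with a median spacing of 1172 bp. A 12019-bp peak over HMGA1, which encodes an architectural chromatin protein, held 8.

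The strength of a KDM2B peak went with its place. Fold here is the ratio that the authors' peak caller gave at the summit, and it was used only to rank the peaks of 1 list. In the lowest decile by fold (1.18 to 2.25) the median distance to MYC was 3050 bp, 30.1% of summits lay within 250 bp, 36.1% lay inside a MYC peak and 16.4% inside an H3K4me3 peak. In the highest decile (5.12 to 26.3) the median was 114 bp, 64.2% lay within 250 bp, 99.8% inside a MYC peak and 99.5% inside an H3K4me3 peak. Strong KDM2B peaks were thus nearly all at H3K4me3-marked sites that MYC also held. The summits of the highest decile that were over 250 bp from a MYC summit were also nearly all inside a MYC peak. Peak width rose along with the fold, with median KDM2B widths of 292 bp in the lowest decile and 1024 bp in the highest, and its part in the distance was not tested.

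**Figure D2:**
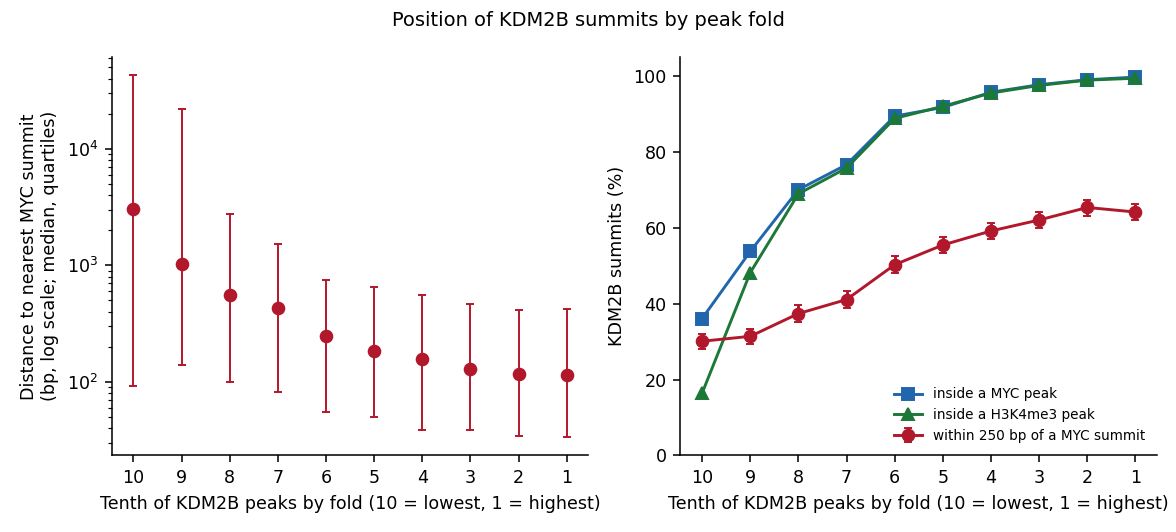
KDM2B summits in deciles of peak fold, lowest decile on the left of each panel. Left, distance to the nearest MYC summit (bp, log scale; points are medians and bars quartiles), from 3050 bp in the lowest decile to 114 bp in the highest. Right, percent of summits within 250 bp of a MYC summit (bars are 95% Wilson intervals), inside a MYC peak and inside an H3K4me3 peak.

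Distance by the width of the nearest MYC peak showed no single direction. In quintiles by that width the median distance was 8271 bp at the narrowest MYC peaks (median width 278 bp), 111 bp in the next quintile, 129 bp and 211 bp in those after it, and 508 bp at the widest (median width 3706.5 bp). Narrow MYC peaks were seldom at a KDM2B summit, with 28.4% of those KDM2B summits inside a MYC peak, and at the widest 99.1% were inside but only 37.1% within 250 bp of the summit.

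Distance classes differed in chromatin marks. Of KDM2B summits within 50 bp of a MYC summit, 84.0% were inside an H3K4me3 peak, 80.8% inside an H3K27ac peak and 17.0% inside an H2AK119ub peak. At 51 to 250 bp the shares were 97.0%, 89.2% and 16.0%, and at over 250 to 1000 bp 96.8%, 90.3% and 18.7%, so the closest pairs had the lowest H3K4me3 and H3K27ac shares of these 3 classes. Over 1 to 10 kb away, 1510 summits were still inside a MYC peak and 99.9% of these were in H3K4me3, 97.0% in H3K27ac and 27.3% in H2AK119ub. The other 1005 summits of that class were outside MYC peaks, with 13.5% in H3K4me3, 9.95% in H3K27ac and 22.2% in H2AK119ub. Over 100 kb away, 1.23% were in H3K4me3, 2.24% in H3K27ac and 8.5% in H2AK119ub. Among KDM2B summits over 1 kb away, those inside a MYC peak were thus nearly all in H3K4me3 and most of the others were not.

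By chromosome, the median distance ran from 178 bp on chromosomes 12 and 15 to 915 bp on chromosome 21. On chromosome 21 the 472 KDM2B summits had a median fold of 2.44 and 30.1% were in H3K4me3, against 774 summits, a median fold of 3.57 and 91.5% on chromosome 12. Chromosome 18 had the lowest share within 250 bp, 36.0% of 325 summits.

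The KDM2B summits farthest from MYC lay away from genes. Of the 894 over 100 kb from any MYC summit, 73 (8.17%) lay in a protein-coding gene record or within 1 kb of one. The 10 of highest fold, 4.35 to 6.06, lay on chromosomes 2, 3, 12, 16 and 17, at 0.25 to 3.62 Mb from the nearest protein-coding gene and 101 to 341 kb from MYC, near the centromeres. None of the 10 was in an H3K4me3, H2AK119ub or H3K27me3 peak, and 6 were in an H3K27ac peak. The highest, on chromosome 3 with its summit at position 93037035, had a fold of 6.06. How uniquely reads can be placed at these 10 sites was not tested.

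Around transcription starts the summits had a side. Of the starts in the RefSeq promoter table, 10660 had no other start within 3 kb, and 3803 of these had a summit of both factors within 2 kb. The strongest KDM2B summit lay at a median of 189 bp after the start, with quartiles of 77 and 350 bp, and the strongest MYC summit at 137 bp, with quartiles of -126 and 265 bp. KDM2B was downstream of the start at 78.6% of starts and MYC at 68.2%. Both distributions peaked 100 to 200 bp into the gene, with 23.8% of starts for KDM2B and 25.5% for MYC, and a lesser MYC group stood upstream: 7.55% of starts had the MYC summit 200 to 100 bp before the start, against 3.16% for KDM2B.

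**Figure D3:**
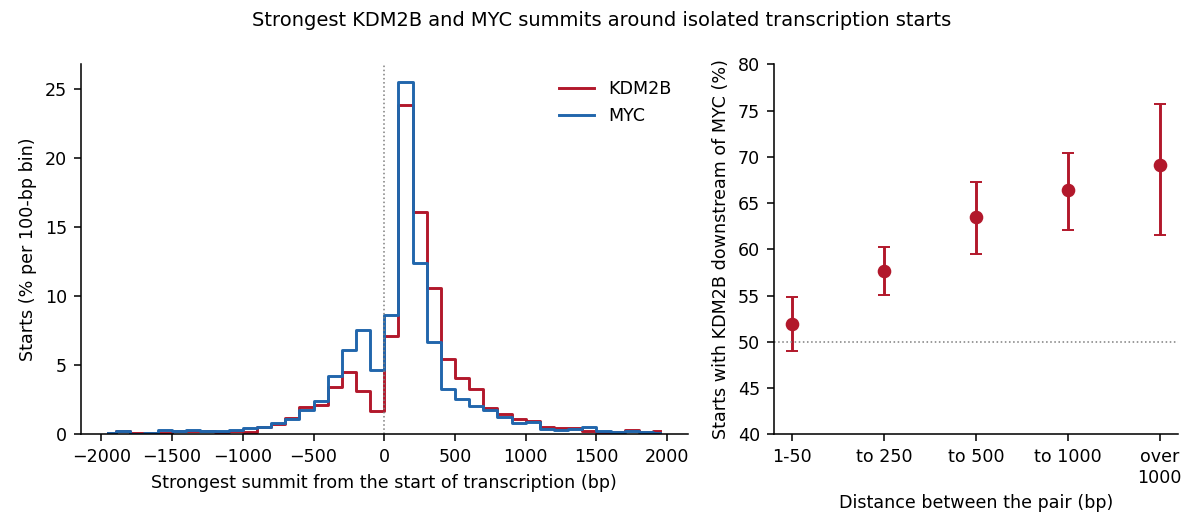
Left, position of the strongest KDM2B and strongest MYC summit around 3803 isolated starts, in the direction of transcription (bp, 0 is the start; % of starts per 100-bp bin). Right, percent of starts with KDM2B downstream of MYC by the distance between the pair (bp; axis from 40%; bars are 95% Wilson intervals, and the dotted line is 50%), from 51.9% at up to 50 bp to 69.1% over 1 kb.

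KDM2B was downstream of MYC at 58.5% of the starts where the positions differed (2191 of 3745; 56.9% to 60.1%). The share was 51.9% for pairs up to 50 bp apart, 57.7% at 51 to 250 bp, 63.5% at over 250 to 500 bp, 66.4% at over 500 to 1000 bp and 69.1% over 1 kb (112 of 162; 61.6% to 75.7%). In the last group KDM2B had a median of 555 bp and MYC of -305 bp from the start, on opposite sides of it. H3K4me3 summits had a median of 276 bp after the start and H3K27ac summits of 174 bp. KDM2B was downstream of the H3K4me3 summit at 40.1% of starts with all 3 and differing positions, and H3K4me3 was downstream of MYC at 71.0%. Counted in the same way, H3K27ac was downstream of MYC at 57.4% and KDM2B was downstream of H3K27ac at 53.0%. Pair by pair, the more frequent orders were thus MYC before KDM2B and KDM2B before the highest H3K4me3 signal. MYC was also more often before both marks, so a place after MYC was not particular to KDM2B.

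Genes were counted next, each with its record and 1 kb either side. Of 19126 protein-coding genes, 10382 had a KDM2B summit, 13923 had a MYC summit and 10218 had both, which is 53.4% of all genes. Genes with both held a mean of 1.54 KDM2B and 2.75 MYC summits. Of the genes with KDM2B, 12.7% (1317) had more KDM2B than MYC summits, 41.6% had equal numbers and 45.7% (4741) had more MYC summits. This order depended on list length: with the MYC list cut to as many peaks as KDM2B, more MYC summits were found at 14.3% of genes with KDM2B, and with 15000 peaks per list at 9.43%.

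**Figure D4:**
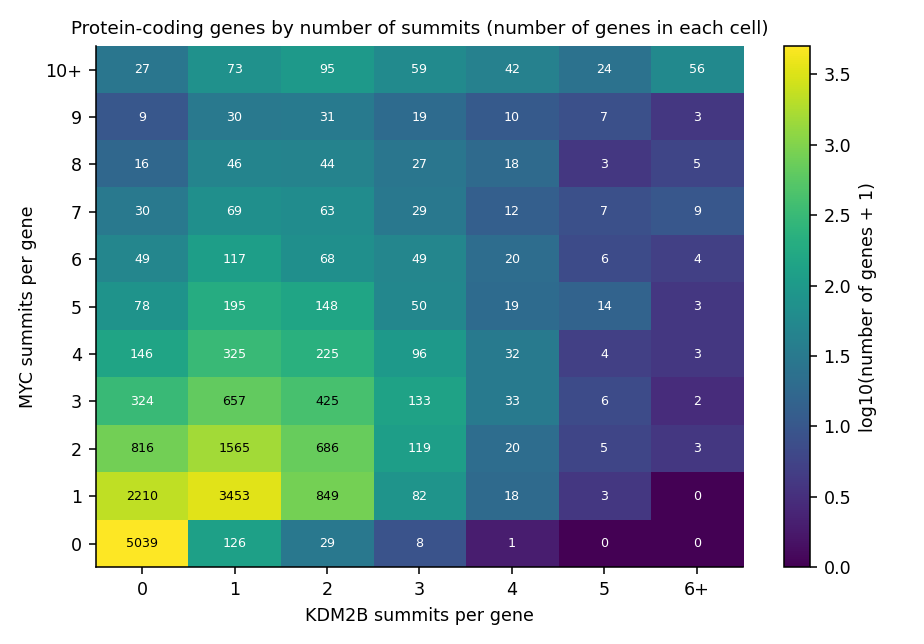
Number of protein-coding genes by KDM2B summits per gene (horizontal) and MYC summits per gene (vertical), with the colour on a log10 scale of genes plus 1. The last column and row hold genes with 6 or more KDM2B and 10 or more MYC summits. The fullest cell with both factors is 1 KDM2B and 1 MYC summit, with 3453 genes.

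The commonest gene with both had 1 summit of each (3453 genes), and in 70.9% of these the summits were within 250 bp and in 2.98% over 1 kb apart. Gene length went with MYC numbers more than with KDM2B numbers. In the shortest quintile of genes (median 3896 bp) the means were 1.49 KDM2B and 1.67 MYC summits, and in the longest quintile (median 150239 bp) 1.67 KDM2B and 4.19 MYC summits. The quintiles were cut over all protein-coding genes, and the means cover only genes with both factors, 1327 in the shortest quintile and 2545 in the longest. Each such gene has at least 1 KDM2B summit by selection. Among genes with both, KDM2B was thus found at about as many places in a long gene as in a short one, while more of the long genes had both.

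Of the 1317 genes with more KDM2B than MYC summits, 1108 (84.1%) had 2 or more of their KDM2B summits inside the same MYC peak. Among genes with 2 or more KDM2B summits and at least as many MYC summits, 1442 of 2535 (56.9%) had this. EPHA2 held 11 KDM2B and 6 MYC summits, and its strongest KDM2B and MYC summits, of fold 6.46 and 16.3, were 3 bp apart. LFNG, a glycosyltransferase that modifies Notch, held 10 KDM2B and 5 MYC summits with the strongest 47 bp apart. Chosen after their values were seen, ZFP36L1, an mRNA-decay protein, held 7 KDM2B and 2 MYC summits, BCL11A, a zinc finger repressor, 5 and 1, and PPP1R15A, the stress-induced subunit of an eIF2α phosphatase, 5 and 1. ATP5F1D, a subunit of ATP synthase, held 4 KDM2B and 0 MYC summits, although its strongest KDM2B summit was inside a MYC peak. Among the other genes with the most KDM2B summits, LOC124905135, a gene record with no name in the annotation used, had 12 KDM2B and 13 MYC, SETD1B (an H3K4 methyltransferase) 11 and 8, EXT1 (a heparan sulfate polymerase) 11 and 41, and GNG7 (a G protein subunit) 10 and 48. BAIAP2 held 10 KDM2B and 13 MYC summits, NOL4L 10 and 16, and PLEC, which encodes the cytoskeletal linker plectin, 10 and 10.

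Pairs within 50 bp with the highest KDM2B fold were at FBRS, BCAR1, CAMTA2, SPAG7 and ABHD6. The KDM2B summit of FBRS had a fold of 15.2 and its closest pair was 24 bp apart. ABHD6, a monoacylglycerol hydrolase, had its strongest summits, of KDM2B fold 10.0 and MYC fold 8.12, 7 bp apart, at -76 and -83 bp from the start. CAMTA2 and SPAG7 are neighbours and share a KDM2B summit of fold 10.2, so they are not independent examples.

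Genes where the factors used separate sites were few. In 233 of the 10218 genes with both, 2.28% of them, no KDM2B summit was within 1 kb of a MYC summit. In 141 of the 233 the nearest MYC summit was still 1 to 2 kb away, and in 57 over 10 kb. In 159 genes a KDM2B summit lay inside a MYC peak despite the distance between summits. Only the other 74, 0.724% of genes with both, had no KDM2B summit inside a MYC peak either. Whether the edges of the peaks overlapped was not counted.

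Both kinds of gene differed in their marks. In the 159 genes with a KDM2B summit inside a MYC peak, the strongest KDM2B summit was in H3K4me3 in all 159 and in H3K27ac in 96.9%, and the strongest MYC summit in 96.9% and 95.6%. In the 74 others the strongest KDM2B summit was in H3K4me3 in 25.7% (17.1% to 36.7%) and in H3K27ac in 5.41%, and the strongest MYC summit in 62.2% (50.8% to 72.4%) and 59.5%. H2AK119ub covered 40.5% of those KDM2B summits and 18.9% of those MYC summits, and H3K27me3, the PRC2 mark, 33.8% and 12.2%. These genes were long, with a median of 194893 bp, and their median folds were 2.65 for KDM2B and 3.91 for MYC, against 3.96 and 12.9 over all genes with both. The part of low folds in these shares was not tested.

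The 10 genes with separate sites and the highest KDM2B fold, 7.06 to 10.5, all had the KDM2B summit inside a MYC peak and in H3K4me3, at 1262 to 2457 bp from the strongest MYC summit. They were IRF2BPL, NAGS, FZD5, GAD1, KIF26B, LHX4, ADGRL2, ZFP36L2, AXIN2 and MISP3. The strongest KDM2B summit was in an H2AK119ub peak in 9 of these 10 genes of highest fold and the strongest MYC summit in 1, NAGS, while over all 159 genes of this kind the shares were 23.3% at KDM2B and 16.4% at MYC. Positions from a start are given in the direction of transcription, for both factors from the annotated start nearest to the strongest MYC summit. FZD5, a Wnt receptor, had its KDM2B summit (fold 7.6) at 1647 bp and its MYC summit (fold 16.0) at 262 bp after the start. IRF2BPL, a RING-domain protein, had KDM2B (fold 10.5) at 2541 bp and MYC (fold 14.7) at 145 bp. NAGS, which makes N-acetylglutamate for the urea cycle, had KDM2B (fold 8.25) at 1473 bp and MYC (fold 15.7) at 211 bp. In these 3 MYC stood at the start and KDM2B farther into the gene.

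The order was not the same at every one. GAD1, which makes the transmitter GABA from glutamate, kept it, with MYC (fold 11.5) at -827 bp and KDM2B (fold 7.51) at 627 bp. At LHX4, MISP3 and ADGRL2 KDM2B came before MYC. LHX4, a LIM homeodomain factor, had KDM2B (fold 7.24) at -807 bp and MYC (fold 10.5) at 860 bp, with both H2AK119ub and H3K27me3 at the KDM2B summit and neither at the MYC summit. MISP3 had KDM2B (fold 7.06) at -139 bp and MYC (fold 6.33) at 2318 bp, just past the end of its record. ADGRL2, an adhesion receptor, had KDM2B (fold 7.2) at -1590 bp and MYC (fold 10.6) at -326 bp. AXIN2, a scaffold that limits Wnt signalling, and ZFP36L2, an mRNA-decay protein, had their strongest summits 1420 and 1638 bp apart.

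Chosen after the first values were seen, the 10 genes of highest KDM2B fold with no KDM2B summit inside a MYC peak had KDM2B folds of 3.09 to 3.76. Their strongest summits were 21124 to 178874 bp apart. The MYC summit was in H3K4me3 in 10 and in H3K27ac in 6, and the KDM2B summit in 4 and 2. KNDC1 had KDM2B (fold 3.73) at 413 bp after its start and MYC (fold 6.32) at 66199 bp, just past the end of its record. INTU, a planar polarity effector of cilia, had KDM2B (fold 3.13) at 44066 bp and MYC (fold 3.7) at 183 bp. The other 8 were OTOGL, ST8SIA6, CSGALNACT1, CYP27C1, FGD3, DPP6, COLEC10 and KCNAB1.

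A difference in the strongest site was commoner than a difference in all sites. The strongest KDM2B and strongest MYC summits were over 1 kb apart in 1517 genes, 14.8% of those with both, and 1284 of these also held a pair within 1 kb. The 1284 genes had means of 2.38 KDM2B and 5.28 MYC summits, and the strongest summits were a median of 10142 bp apart. Genes with the strongest summits within 1 kb (8701) had means of 1.42 KDM2B and 2.37 MYC summits. The share with the strongest apart ran from 11.2% in the middle quintile of gene length to 20.8% in the longest quintile.

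H2AK119ub was found at more KDM2B than MYC summits at such genes. Where the strongest were apart, the strongest KDM2B summit was in H2AK119ub in 27.4% of genes (415 of 1517; 25.2% to 29.7%) and the strongest MYC summit in 10.2% (155 of 1517; 8.79% to 11.8%). Where the strongest were within 1 kb, the shares were 9.94% at KDM2B and 7.3% at MYC. Among genes with a KDM2B fold above the median, KDM2B summits were in H2AK119ub in 28.4% of genes with the strongest apart and 11.8% of the others, and at or below the median in 26.1% and 8.19%. Counting only KDM2B summits within 1 kb of a start of the gene, the shares were 23.0% and 7.86%. At KDM2B summits, the higher H2AK119ub share of genes with the strongest apart was thus present at high and low KDM2B fold and at starts. For MYC summits the shares were 8.54% with the strongest apart and 8.83% in the others above the median KDM2B fold. At or below the median they were 12.2% and 5.82%. No MYC share was counted at starts, so KDM2B and MYC summits were not compared there. H3K27me3 was rare at these genes, with 3.74% at KDM2B and 1.48% at MYC where a pair was also present.

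**Figure D5:**
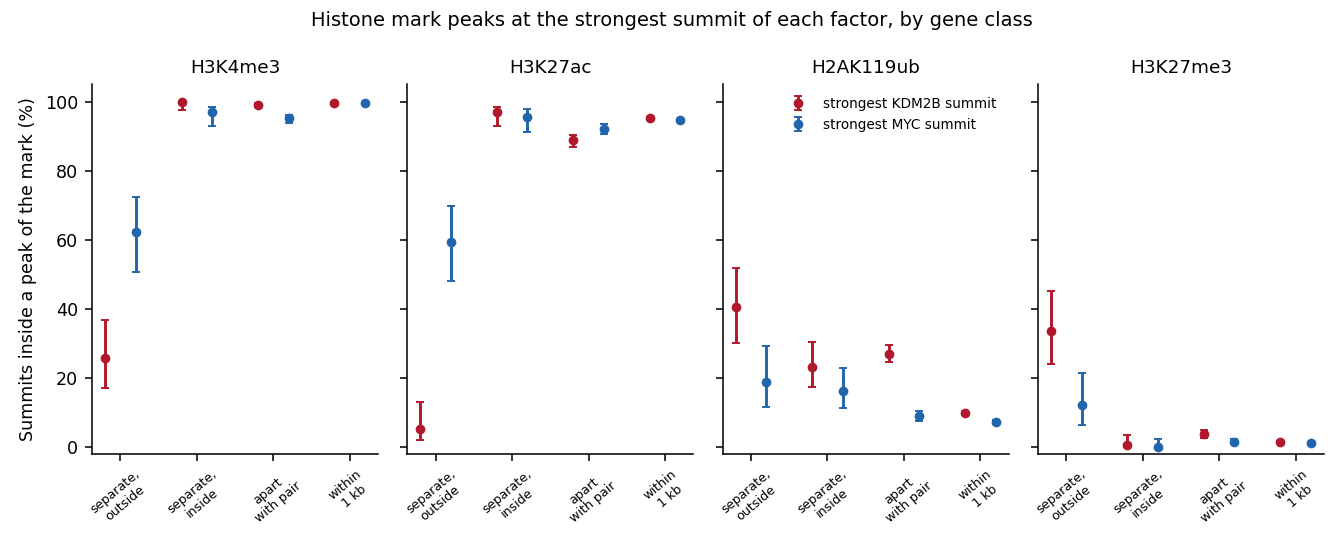
Percent of strongest KDM2B (left point of each pair) and strongest MYC summits inside a peak of H3K4me3, H3K27ac, H2AK119ub or H3K27me3, with 95% Wilson intervals. The gene classes are 74 with separate sites outside MYC peaks, 159 with separate sites inside a MYC peak, 1284 with the strongest summits over 1 kb apart and a pair present, and 8701 with the strongest within 1 kb. H2AK119ub stands at 27.1% of KDM2B and 8.96% of MYC summits where a pair was present.

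Many of these summits were at transcription starts. For 1242 of the 1517 genes a start was in the promoter table. The strongest KDM2B summit was within 1 kb of a start of the gene itself in 58.1% and the strongest MYC summit in 50.2%. Both were at own starts in 25.2% (313), KDM2B alone in 32.9%, MYC alone in 25.0% and neither in 16.8%. A summit at a start of another gene and at none of the gene's own was found for 11.2% of KDM2B and 8.78% of MYC summits, against 3.72% and 3.71% at genes with the strongest within 1 kb. A summit counted for a gene can thus belong to the promoter of a neighbour.

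Of the 10 genes with a pair and the highest KDM2B fold, BCAR1, a focal adhesion scaffold, had KDM2B (fold 11.0) at -17945 bp and MYC (fold 23.0) at 2532 bp from the start. SPTBN1, a spectrin, had KDM2B (fold 9.18) at -101880 bp and MYC (fold 34.7) at -486 bp, and its closest pair was 7 bp apart. SEPTIN9, a septin, had KDM2B (fold 8.69) at -37953 bp and MYC (fold 32.8) at 1459 bp, with 8 KDM2B and 22 MYC summits. In these 3 genes the strongest KDM2B summit lay upstream of the strongest MYC summit and far from it. These offsets are from a start inside the gene, the one nearest to the MYC summit. The KDM2B summits lay inside the gene records, toward their 5′ ends. In SPTBN1 the summit was at position 54456503 in a record beginning at 54456327, and in SEPTIN9 at 77281565 in one beginning at 77281499.

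EPB41L4A had its only KDM2B summit, of fold 9.83, at -373 bp and its strongest MYC summit, of fold 46.1, at 258302 bp, near the far end of the gene. SNX15, a sorting nexin, had KDM2B (fold 9.67) at 277 bp and MYC (fold 29.9) at 13881 bp, past the end of its record. EPAS1, which encodes the hypoxia-inducible factor HIF-2α, had KDM2B (fold 8.91) at 1554 bp and MYC (fold 13.3) at -467 bp, and its KDM2B summit was in H2AK119ub and its MYC summit was not. GCH1, which makes the first intermediate of tetrahydrobiopterin, and PLEKHA7, a junction protein, had their strongest summits 31840 and 88275 bp apart.

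KDM2B summits without any MYC summit were found at 164 genes, 1.58% of those with KDM2B. In 64 of them (39.0%) the strongest KDM2B summit was nevertheless inside a MYC peak whose summit lay outside the gene. Selected after their values were seen as those of highest KDM2B fold, ACTG1, a cytoplasmic actin, had a KDM2B fold of 7.01 and its nearest MYC summit at 2642 bp. FOXO3, a forkhead factor, had a KDM2B fold of 6.54 and its nearest MYC summit at 3644 bp. Over all 164 genes the strongest KDM2B summit was in H3K4me3 in 59.8%, in H2AK119ub in 31.1% and in H3K27me3 in 23.2%. Of the 6 genes of highest KDM2B fold outside MYC peaks, CALY (fold 4.1), CFAP206 (3.9), CGNL1 (3.9), SRSF12 (3.83) and TTC29 (3.83) had H3K4me3 and neither Polycomb mark at the summit. The other, OTP, a homeobox gene, had a KDM2B fold of 3.9 with H2AK119ub and H3K27me3 and no H3K4me3 at the summit, 141 kb from MYC.

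The study's title concerns amino acid metabolism, and 12 of 13 core genes had both factors, against 53.4% of all protein-coding genes. SLC7A11, the cystine transporter, had MYC summits of fold 5.23 and 10.6 and no KDM2B summit. All 12 had the strongest KDM2B summit inside a MYC peak, in H3K4me3 and in H3K27ac, as had 98.4%, 99.1% and 93.8% of all genes with both. Of the serine pathway, PHGDH, its first enzyme, had 1 KDM2B (fold 2.42) and 1 MYC summit (fold 5.21), 377 bp apart. PSAT1, the transaminase of the next step, had KDM2B (fold 4.28) 171 bp from MYC (fold 36.3). PSPH, the last step, had KDM2B (fold 7.65) 61 bp from MYC (fold 23.6), and a further pair 2 bp apart with KDM2B fold 3.52 and MYC fold 9.13. SHMT2, which makes glycine in mitochondria, had KDM2B (fold 2.49) 38 bp from MYC (fold 22.1), and MTHFD2, a mitochondrial folate enzyme, KDM2B (fold 3.1) 95 bp from MYC (fold 13.4). The 5 genes of serine, glycine and folate metabolism had their strongest summits 38 to 377 bp apart. These values lay on both sides of the median of 163 bp over all genes with both. The only KDM2B peaks of PHGDH and SHMT2 were weak, however, with −log10 q-values of 1.92 and 1.84. Both would be lost from a list held to q under 1e-05.

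ASNS had its strongest summits, KDM2B fold 3.83 and MYC fold 18.6, 71 bp apart. ATF4, the transcription factor of the amino acid response, had its stronger KDM2B summit (fold 3.41) 990 bp from the MYC summit (fold 36.3) and its weaker one (fold 2.5) 64 bp from it. The MYC gene had a KDM2B summit of fold 6.92 at 48 bp from its own MYC summit of fold 6.55.

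The strongest summits were over 1 kb apart at 3 transporter genes of the core set. SLC1A5, the glutamine transporter ASCT2, had separate sites: KDM2B summits at positions 46784730 (fold 4.53) and 46788333 (fold 3.54) of chromosome 19 flanked the MYC summit at 46786940 (fold 24.0), at 2210 and 1393 bp. All 3 lay in a single MYC peak of 6597 bp. SLC7A5, the light chain of the LAT1 exchanger, had 6 KDM2B and 9 MYC summits, with the strongest KDM2B summit (fold 5.3) at 12565 bp after the start and the strongest MYC summit (fold 24.3) at -181 bp. At the start of SLC7A5 a KDM2B summit of fold 4.11 lay 395 bp from that MYC summit. SLC3A2, the heavy chain shared by such exchangers, had 5 KDM2B and 5 MYC summits at separate promoters: KDM2B folds of 2.86 and 3.59 and a MYC fold of 31.1 at one, and KDM2B folds of 2.86, 4.52 and 3.3 and a MYC fold of 18.0 at the other, 24994 bp from the strongest KDM2B summit to the strongest MYC summit. Both promoters of SLC3A2 had a pair, 51 bp and 6 bp apart, and differed in which factor was stronger within its own list.

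The KDM2B gene showed the same kind of pattern. Its KDM2B summit of fold 7.52 stood 65 bp from a MYC summit of fold 11.9, and its strongest MYC summit, of fold 17.0, stood 69804 bp away, 102 bp from a KDM2B summit of fold 5.73.

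The counts in whole gene lists stand beside those of all genes with both, of which 2.28% had separate sites and 14.8% the strongest apart. Of 22 serine, glycine and one-carbon enzymes, 15 had both, 2 of the 15 were separate and the same 2 apart: SARDH and FTCD, which degrade sarcosine and histidine-derived formiminoglutamate. SARDH had KDM2B (fold 4.45) 3753 bp from MYC (fold 15.5), and FTCD had KDM2B (fold 2.37) 9159 bp from MYC (fold 6.78). The only KDM2B peak of FTCD was weak, with a −log10 q-value of 1.65, and would be lost from a list held to q under 1e-05. Of glutamine, glutamate, aspartate, proline and arginine enzymes, 22 of 27 had both, and NAGS and GAD1 were separate. Of 27 amino acid transporters on chromosomes 1 to 22, 20 had both, 1 was separate (SLC1A5) and 3 had the strongest apart, and the 20 held 42 KDM2B and 63 MYC summits. Of 20 cytosolic aminoacyl-tRNA synthetases, 17 had both and only AARS1 had the strongest apart, by 37517 bp. Of 27 ATF4-responsive genes, 20 had both, with VLDLR separate and SQSTM1, an autophagy receptor, 12241 bp apart. The medians between strongest summits in these 5 lists were 166 to 272 bp, against 163 bp over all genes with both.

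Of 34 Polycomb subunits, 29 had both, none was separate and 5 had the strongest apart: PHC2, KDM2B, CBX7, RING1 and AUTS2. RING1, a catalytic subunit of PRC1, had KDM2B (fold 3.65) at 5135 bp and MYC (fold 10.2) at -88 bp from the start. That KDM2B summit lay past the end of the RING1 record, within the 1 kb counted beside it. CBX7, a reader of H3K27me3, had KDM2B (fold 4.17) at -695 bp and MYC (fold 12.2) at 7122 bp. Of 15 genes of the MYC network, 14 had both and 3 had the strongest apart, MXD1 by 1055 bp, FBXW7 by 1466 bp and MLXIPL by 22372 bp. MXD1 is a MAX partner that opposes MYC, and FBXW7 directs MYC for degradation.

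Of 30 ribosome biogenesis and nucleotide synthesis genes, 24 had both and 4 had the strongest apart, UBTF, WDR12, ADSL and IMPDH1. WDR12, a ribosome maturation factor, was the separate one, with KDM2B (fold 5.13) at -913 bp and MYC (fold 20.0) at 136 bp from the start. Of 20 glycolysis genes, 19 had both and 2 had the strongest apart, SLC16A3, the lactate exporter MCT4, by 1235 bp and PFKFB3 by 18823 bp. Of 70 developmental transcription factors, 23 had both, which is 32.9% and the lowest of the lists, 5 had the strongest apart and 2, ZIC4 and FOXC1, were separate. GATA2 had KDM2B (fold 6.96) at -1027 bp and MYC (fold 16.5) at 1393 bp, and GATA6 had KDM2B (fold 5.43) at 816 bp and MYC (fold 23.0) at -350 bp.

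Of 14 mesenchymal and basal genes, 10 had both and 3 had the strongest apart. EGFR, the epidermal growth factor receptor, had 6 KDM2B and 28 MYC summits with the strongest, of KDM2B fold 6.7 and MYC fold 14.9, 53841 bp apart. FN1, fibronectin, had KDM2B (fold 2.99) at -972 bp and MYC (fold 6.74) at 205 bp. Of 16 luminal and epithelial genes, 9 had both and 1, ESR1, the oestrogen receptor, was separate. ESR1 had KDM2B (fold 2.61) at -1225 bp from the annotated start nearest to its MYC summit, a start inside the gene. That KDM2B summit was in H3K4me3 and H2AK119ub and not in H3K27ac. Its peak, the only KDM2B peak of ESR1, had a −log10 q-value of 2.1 and would be lost at q under 1e-05. The MYC summit of ESR1 (fold 4.94) was at 286524 bp from that start, in H3K27ac. All these lists were small, and counts of this size carry no test.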

How the data were processed

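ChIP-seq libraries were grouped by antibody and cell stock, with no word on separate cultures in the labels. Per the submitters' processing notes, reads were handled with Trim Galore, Bowtie2 2.4.5, SAMtools 1.6 and MACS2 2.2.7.1 on build hg38. The control for each list and any pooling of libraries are not given in the sources used here. The deposited lists are narrow peaks. Their fold is the authors' ratio at the summit, their −log10 q-value comes from the authors' peak caller (highest q 0.0499), and their last deposited column is the summit's offset from the peak start. Wide peaks keep 1 summit, so a second maximum within a peak is not seen.

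Summits, written from base 1, were paired with the nearest summit of the other list in Python 3.11.15 with pandas 2.3.3 and numpy 2.4.6, a step tested on simulated data. Genes were protein-coding RefSeq records of GRCh38.p14 on chromosomes 1 to 22 with 1 kb either side. The strongest summit is that of highest fold. Starts and sequences came from the RefSeq promoter table, which covered 15101 of 19126 genes. A mark at a summit means that a peak of the mark covers that base. Shares have 95% Wilson intervals.

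Genes were named by rule: 13 core genes; the 10 of highest KDM2B fold with separate sites, and with the strongest apart beside a pair; the 10 with most KDM2B summits; the 5 of highest fold with a pair within 50 bp; up to 4 per gene list with separate or apart summits; the 10 far summits of highest fold; and all members of counts of 5 or fewer. Members, lists and rule were chosen with earlier results of these data known. Alternatives were stricter and shorter lists, other distances, gene windows, midpoints and chromosome X. Input and ATF4 libraries were not used here, and 1 gene that the rule names is not reported here.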

Additional observations from a re-analysis of the deposited data

How the results depend on the processing

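The share of KDM2B summits within 250 bp of MYC (49.7%, median 256 bp) was 55.7% (174 bp) for peaks with q under 1e-05, 45.7% (337 bp) for the 15000 peaks of highest fold per list, 40.9% (464 bp) with the MYC list cut to the KDM2B number and 42.1% (331 bp) with peak midpoints; within 100 and 500 bp it was 35.4% and 61.3%. Separate sites (2.28%) were 3.16% with 15000 peaks, 10.0% at 500 bp, 0.9% at 2 kb, 3.11% for the gene record alone, 2.01% with 5 kb either side and, as chosen after seeing the data, 0.724% with KDM2B summits inside a MYC peak counted as the same site. Strongest summits apart (14.8%) were 14.1% with 15000 peaks and with the cut MYC list, 27.9% at 500 bp, 10.6% at 2 kb, 19.4% for the record alone and 19.8% with 5 kb. Genes with more MYC than KDM2B summits (45.7%) were 36.3% at q under 1e-05, 9.43% with 15000 peaks, 14.3% with the cut list, 41.7% for the record alone and 55.4% with 5 kb. The causes were not tested beyond what each setting itself changes. The other settings moved each value by less than its interval, with chromosome X added giving 49.6%, 257 bp, 2.27%, 14.9% and 45.6%. No paired analysis was possible because each list holds 1 set of peaks for both libraries of a target, and for the same reason no replicate could be left out. Separate sites rest on the 1 summit that a wide peak keeps, weak peaks were the ones most often far from MYC, and depth, unknown here, limits how many weak KDM2B peaks could be seen beside the longer MYC list.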
